A study of Mus musculus with 24 samples.

Results

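The kinesin and dynein motor genes were described in bulk RNA-seq of mouse hindlimb muscle after induction of the reprogramming factors OSKM (Pou5f1, Sox2, Klf4 and Myc) in myofibers. The members were the protein-coding rows of the count table whose symbol begins with Kif followed by a digit or c, with Klc followed by a digit, or with Dync or Dynl, and 62 of 24537 genes met this rule. They were sorted by role into 14 mitotic kinesins, 15 transport kinesins, 4 kinesin light chains, 5 chains of cytoplasmic dynein 1, 9 dynein light chains, 2 genes of dynein 2 and 13 other kinesins. The 33 genes of the transport kinesins, kinesin light chains, dynein 1 chains and dynein light chains are called transport motors below. Kif1bp matched by its name alone, since it encodes a kinesin-binding protein and not a motor.

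The 24 libraries came from the extensor digitorum longus (EDL), a fast-twitch muscle, and the soleus (SOL), a slow-twitch muscle, of mice aged 2 months. Acta1-Cre+/4Fhet mice (Cre+) were compared with Acta1-Cre-/4Fhet mice (Cre-). Both genotypes carried 1 copy of the doxycycline-inducible OSKM cassette at Col1a1 and of a loxP-STOP-loxP rtTA allele at ROSA26, and both drank water with doxycycline (Dox) at 1 mg/ml. The time on Dox was 2.5 days, 5.5 days or 8.5 days. Acta1-Cre recombines in myofibers, so the design placed induction there and not in the other cells of the muscle. Each of the 12 combinations of muscle, genotype and day had 2 libraries. The study describes the libraries of a group as biologically independent samples.

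Kinesins and dyneins are ATP-driven motors that walk along microtubules. Most kinesins move towards the plus end and carry vesicles, organelles, RNA and protein complexes, and kinesin light chains link the kinesin-1 heavy chains to cargo. Cytoplasmic dynein 1 moves towards the minus end as an assembly of heavy, intermediate, light intermediate and light chains, and needs dynactin and an adaptor to travel far. Dynein 2 works inside cilia. Mitotic kinesins build the spindle, align chromosomes and complete cytokinesis, and are made mainly in dividing cells. A myofiber is a long syncytium that has left the cell cycle, in which these motors position nuclei and move organelles.

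The promoters of 4 members are shown because they cover both sides of the comparison: a mitotic kinesin that rose, a mitotic kinesin that did not pass the test, and 2 dynein chains that rose. Each window runs from 250 bases before to 50 bases after the RefSeq start, 5′ to 3′ on the gene's strand in GRCm38.p6. Capitals mark the cell cycle homology region (CHR), which is spelled TTTGAA here or, as a variant of the same element, TTCGAA, and the CCAAT box. Both were searched on both strands, so capitals may show the reverse complement.
Kifc1 (chr17:33890584-33890883, minus strand): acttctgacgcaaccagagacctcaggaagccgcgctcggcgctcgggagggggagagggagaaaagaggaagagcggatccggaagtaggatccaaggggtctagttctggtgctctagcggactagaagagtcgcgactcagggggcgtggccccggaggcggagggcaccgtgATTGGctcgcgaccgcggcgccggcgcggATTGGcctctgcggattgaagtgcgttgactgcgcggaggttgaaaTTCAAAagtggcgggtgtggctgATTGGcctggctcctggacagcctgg
Kif11 (chr19:37376132-37376431, plus strand): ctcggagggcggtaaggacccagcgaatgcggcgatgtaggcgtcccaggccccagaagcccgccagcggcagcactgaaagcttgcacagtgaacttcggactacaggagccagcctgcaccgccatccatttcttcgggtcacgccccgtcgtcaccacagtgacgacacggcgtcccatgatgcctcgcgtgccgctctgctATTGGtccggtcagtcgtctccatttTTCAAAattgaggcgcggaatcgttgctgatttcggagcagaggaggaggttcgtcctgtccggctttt
Dync1i1 (chr6:5725389-5725688, plus strand): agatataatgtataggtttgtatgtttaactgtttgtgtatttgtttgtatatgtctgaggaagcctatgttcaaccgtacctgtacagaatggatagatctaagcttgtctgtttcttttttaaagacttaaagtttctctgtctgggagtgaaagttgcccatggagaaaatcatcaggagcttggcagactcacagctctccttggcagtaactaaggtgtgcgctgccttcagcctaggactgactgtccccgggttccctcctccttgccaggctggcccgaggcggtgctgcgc
Dync1li1 (chr9:114688581-114688880, plus strand): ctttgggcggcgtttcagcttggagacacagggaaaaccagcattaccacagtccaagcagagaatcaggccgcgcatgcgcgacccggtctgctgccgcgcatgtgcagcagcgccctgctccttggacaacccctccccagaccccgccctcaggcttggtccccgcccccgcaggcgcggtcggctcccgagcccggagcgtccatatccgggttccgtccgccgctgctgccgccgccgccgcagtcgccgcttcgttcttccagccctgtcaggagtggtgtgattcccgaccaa

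The Kifc1 window held a CHR and 3 CCAAT boxes, the Kif11 window 1 of each, and the Dync1i1 and Dync1li1 windows neither. RefSeq promoters of this length were found for 48 of the 62 members and not for 14. A member counted if any of its windows held the motif, whereas the share of all promoters counted each window singly. A CHR was present in 11 of 13 mitotic kinesins and in 1 of 23 transport motors, against 19.2% of all 32851 promoters. CCAAT was present in 9 of 13 and 8 of 23, against 37.4% of all promoters, and the E-box CACGTG in 0 and 2, against 7.15%. A match here describes letters in a window and not a bound site.

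Total counts ranged from 36088781 to 54679082 per library, with a median of 44243960. Cassette and native transcripts of Pou5f1, Sox2, Klf4 and Myc cannot be told apart. Their summed level is given in CPM (counts scaled to the total count of the library, without the exon length). It was 176 to 590.4 CPM in Cre+ EDL at 2.5 days and 462 to 571 at 8.5 days. In Cre- EDL on those days it was 27.2 to 59.9. In SOL it was 83.6 to 106 and 76.7 to 140.4 in Cre+ mice against 39.8 to 74.8 in Cre- mice. At 5.5 days it was 35.2 to 252 in Cre+ EDL and 24.2 to 44.8 in Cre+ SOL, against 33.1 to 48.0 in Cre- mice. The text of the study compares the other days only. Its methods state that samples lacking OSKM overexpression were left out as outliers, and do not name them. The 6 fast myofiber markers summed to 49424 to 76222 CPM in Cre+ EDL at 2.5 days and to 90222 to 103993 in Cre- EDL. In bulk samples, fewer cells of a type and less RNA per cell cannot be told apart.

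Both muscles of Cre- mice expressed a wide range of motors. Their levels are given in FPKM (counts scaled to exon length and to the total count of the library, comparable between genes). Averaged over all 24 libraries, 17 members were above 10 FPKM, 32 were below 1 FPKM, and all 14 mitotic kinesins were below 1 FPKM. Kif1c, a kinesin-3 of vesicle and RNA transport, was the most abundant at 232 ± 44.1 FPKM in EDL and 190.3 ± 27.8 in SOL (SD, n = 6 Cre- libraries each, as for the values that follow). Dynll2, a light chain shared by dynein and myosin V, reached 148 ± 21.1 and 142 ± 12.1 FPKM. For both genes the EDL and SOL libraries overlapped.

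Next in that order stood the dynein light chain Dynlrb1 at 61.4 ± 5.23 FPKM in EDL and 79.9 ± 7.67 in SOL, and the mitochondrial and vesicle kinesin Kif1b at 46.4 ± 9.44 and 53.4 ± 5.73. Klc1 stood at 28.3 ± 2.66 and 32.9 ± 1.74, and the dynein heavy chain Dync1h1, which carries the ATPase ring, at 15.8 ± 2.19 and 22.5 ± 3.39. Among the mitotic kinesins, Kif18a, which aligns chromosomes, had the highest mean over the 24 libraries at 0.418 FPKM. The remaining 4 members were too low to test. Kif2b had 0 counts in all 24 libraries, which by counting error alone allows up to 3 counts per library, and Kif12, Dynlrb2 and Kif17 had at most 1, 8 and 11 counts in any library.

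**Figure D1:**
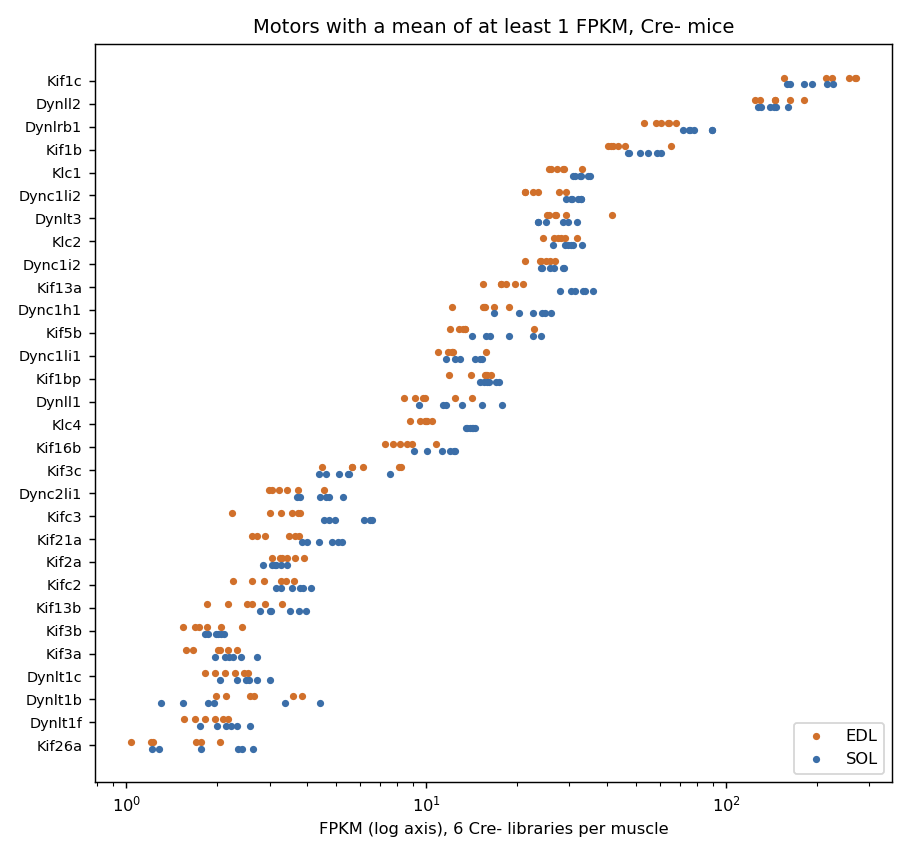
Level of the 30 motors with a mean of at least 1 FPKM, on a log axis, with 1 point for each of 6 Cre- libraries per muscle (EDL orange, SOL blue), sorted by mean. Kif13a shows separate clouds for the muscles (18.3 ± 1.91 against 32.1 ± 2.83 FPKM, SD), whereas Kif1c and Dynll2 overlap.

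Against each other, Cre- EDL and Cre- SOL differed in 4 of 58 tested motors, 3 lower and 1 higher in EDL, where 21.9% of all 15372 genes tested were called (11.1% lower and 10.8% higher). Calls needed an absolute log2 fold change above 0.5 and a Benjamini-Hochberg adjusted p below 0.05 from the quasi-likelihood test of edgeR, and this rule holds throughout. Kif13a, which carries endosomes and receptors, measured 15.5 to 21.1 FPKM in the 4 tested EDL libraries of 2.5 and 8.5 days and 28.0 to 33.7 in the 4 SOL libraries, a log2 difference of -0.67 (SE 0.09, edgeR adjusted p = 6.38e-05). Kifc3, a minus-end-directed kinesin of cell junctions and organelles, was lower in EDL by a log2 difference of -0.66 (SE 0.10, edgeR adjusted p = 0.000228). The spindle motor Kif11 measured 0.132 to 0.266 FPKM in EDL and 0.502 to 0.622 in SOL, a log2 difference of -1.50 (SE 0.25, edgeR adjusted p = 0.000496).

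For these 3 genes every EDL library lay below every SOL library, which held for 9.37% of all genes together with a call. Kif19a, a kinesin that limits ciliary length, was higher in EDL with 0.609 to 0.79 FPKM against 0.273 to 0.735 in SOL, so that the groups overlapped, and its log2 difference was 0.94 (SE 0.25, edgeR adjusted p = 0.0128). Klc4, Kif21a and Dynlrb1 were also lower in EDL at an edgeR adjusted p below the threshold but with differences smaller than the fold limit (-0.45, -0.44 and -0.28). All 4 calls remained with each library left out in turn, and 7 motors were called without Cre- EDL replicate 1 or 2 of 8.5 days. With the shared replicate number as a block, 6 were called, the added ones being Dynlt1b at 0.52 and Kif20a at -0.67.

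In EDL after 2.5 days of Dox, 17 of 58 tested motors differed between Cre+ and Cre- mice, 13 upwards and 4 downwards, which is 29.3% of them against 24% of all genes tested. Calls of higher level made up 13.8% of all genes and calls of lower level 10.2%. The median log2 fold change of the tested motors was 0.17 and that of all genes -0.05. The rises lay in 4 of the 5 dynein 1 chains, Klc1, Kif3b, Kif5c, Kif7, Kif9, Kifc1, Dynll1 and both dynein 2 genes, and the falls in Kif1b, Kifc3, Kif26b and Dynlt1b. In each of the 17 the Cre+ and Cre- values did not overlap, which together with a call held for 13.8% of all genes in the higher and 9.57% in the lower direction. Scaling by library size alone put the median of all genes at 0.28 (0.16 in EDL at 8.5 days and 0.18 in SOL at 2.5 days). It gave 20 motors higher and 2 lower, where 4207 and 610 of all 15372 genes were, with Kifc3 and Dynlt1b no longer called.

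Of the 5 dynein 1 chains, 4 were higher in EDL of Cre+ mice at 2.5 days, with a class median of 1.08 on the log2 scale. The heavy chain gene Dync1h1 (chr12:110601395-110666944) measured 15.4 and 15.7 FPKM in the Cre- libraries and 40.8 and 42.2 in the Cre+ libraries. Its log2 fold change was 1.08 (SE 0.21, edgeR adjusted p = 0.00212). The light intermediate chains, which bind adaptors, rose as well. Dync1li1 (chr9:114688831-114723777) went from 10.9 and 12.2 to 27.3 and 43.6 FPKM, with a log2 fold change of 1.27 (SE 0.20, edgeR adjusted p = 0.000609). Dync1li2 (chr8:104417674-104443047) went from 23.5 and 21.2 to 47.8 and 70.3 FPKM, with a log2 fold change of 1.06 (SE 0.14, edgeR adjusted p = 0.000185). In none of these 3 genes did the groups overlap, and in the 2 light intermediate chains Cre+ replicate 2 was the higher library.

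The intermediate chains, which connect the heavy chain to dynactin, behaved unequally. Dync1i1 (chr6:5725639-6028039), the form known mainly from neurons, was low in Cre- EDL with 0.175 and 0.233 FPKM (21 and 29 counts). In Cre+ EDL it reached 2.83 and 6.30 FPKM (369 and 761 counts), a log2 fold change of 4.13 (SE 0.55, edgeR adjusted p = 0.000216) and the highest among the 58 tested members in this comparison. Dync1i2, the widely expressed form, measured 24.02 and 25.1 FPKM in Cre- EDL and 34.0 and 36.3 in Cre+ EDL, a log2 fold change of 0.18 (SE 0.12, edgeR adjusted p = 0.265). Its library values did not overlap, yet on the scaled counts the difference did not pass the test. Scaled by library size alone, Dync1i2 was called with a log2 fold change of 0.52, as were all 5 dynein 1 chains. Even after the rise, Dync1i1 stayed below Dync1i2 in FPKM. Whether the counting used strand is not stated, so reads of Dync1i1 cannot be told apart from those of the overlapping gene 1700019G24Rik on the opposite strand, nor Klc1 from Xrcc3 and Kif7 from Ticrr.

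**Figure D2:**
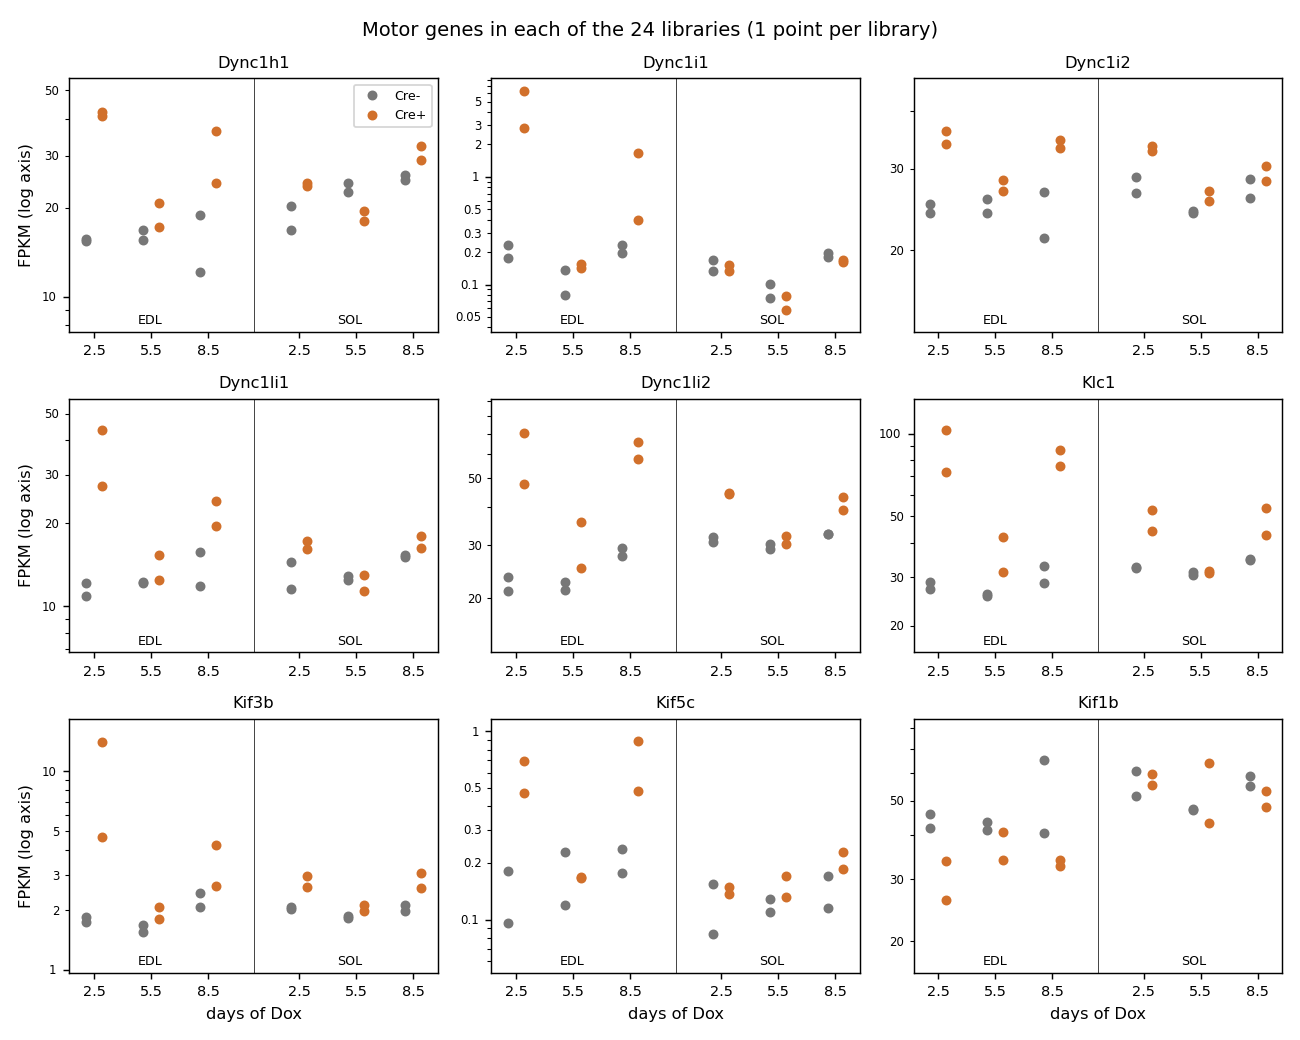
FPKM of 9 motors on log axes, 1 point per library, by days of Dox in EDL and SOL (Cre- grey, Cre+ orange). Dync1i1 rises from at most 0.233 to at least 2.83 FPKM in EDL at 2.5 days and stays at or below 0.194 in every SOL library, while Kif1b is lower in Cre+ EDL on that day.

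Klc1 (chr12:111758849-111806775), the light chain that couples kinesin-1 to cargo, measured 28.9 and 27.3 FPKM in Cre- EDL and 72.6 and 103 in Cre+ EDL at 2.5 days. The log2 fold change was 1.31 (SE 0.15, edgeR adjusted p = 0.000109), and the groups were far apart. The other 3 light chains did not pass the test, with Klc2 at a log2 fold change of -0.06 (edgeR adjusted p = 0.782) and Klc4 at 0.29 (edgeR adjusted p = 0.0938).

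Among 14 tested transport kinesins, 2 rose and 2 fell, and the class median was 0.10. Kif3b, a subunit of the heterotrimeric kinesin-2 of cilia and organelles, measured 1.74 and 1.85 FPKM in Cre- EDL and 4.68 and 14.04 in Cre+ EDL, with a log2 fold change of 2.03 (SE 0.35, edgeR adjusted p = 0.00113). Both Cre+ libraries were above the Cre- libraries but differed from each other by more than the Cre- libraries did. Kif5c, the kinesin-1 heavy chain best known from neurons, went from 0.0964 and 0.18 to 0.7 and 0.47 FPKM, with a log2 fold change of 1.75 (SE 0.39, edgeR adjusted p = 0.00561).

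Falling members included Kif1b, with 42.0 and 45.9 FPKM in Cre- EDL and 33.8 and 26.1 in Cre+ EDL, a log2 fold change of -0.88 (SE 0.20, edgeR adjusted p = 0.00689). Kifc3 was lower by a log2 fold change of -0.52 (SE 0.14, edgeR adjusted p = 0.0136), with 3.73 and 3.79 FPKM against 3.31 and 3.26. Kif1c, the most abundant motor, measured 225 and 155 FPKM in Cre- and 186 and 223 in Cre+ EDL and did not pass the test (log2 fold change -0.23, edgeR adjusted p = 0.42). Transport kinesins summed to 257 to 327 FPKM in Cre- EDL and 296 to 346 in Cre+ EDL, so the class sum overlapped.

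Of 13 tested mitotic kinesins, 1 passed the test in EDL at 2.5 days. Kifc1, a minus-end-directed kinesin that focuses spindle poles, had 8 and 8 counts in Cre- EDL (0.0784 and 0.0759 FPKM) and 35 and 86 counts in Cre+ EDL (0.317 and 0.84 FPKM). The log2 fold change was 2.54 (SE 0.60, edgeR adjusted p = 0.00742), and the groups did not overlap. Its near-identical relative Kifc5b had 26 and 21 counts in Cre- and 33 and 20 in Cre+ EDL. The authors counted uniquely aligned reads, so reads that match both genes equally would be left out. Kif20b, a kinesin of cytokinesis, had 9 and 12 counts against 26 and 70 and missed the threshold (log2 fold change 1.82, SE 0.65, edgeR adjusted p = 0.0534). The spindle motor Kif11 had 28 and 34 counts against 37 and 17, with overlapping groups (log2 fold change -0.57, edgeR adjusted p = 0.289).

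The mitotic class had 9 log2 fold changes above 0 and 4 below, with a median of 0.29, and 2 members reached an unadjusted p below 0.05. DESeq2 called 2. The median SE of these genes was 0.63, compared with 0.20 for the transport motors. Among the transport motors 8 of 31 were called higher and 3 lower, with a median of 0.12.

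Dynein light chains mostly did not pass the test in EDL at 2.5 days, with 1 of 8 higher and 1 lower and a median of -0.25, which turned to 0.07 with library size alone. Dynll1, the light chain that dimerizes many partners, went from 9.20 and 9.75 to 15.4 and 25.1 FPKM, with a log2 fold change of 0.75 (SE 0.21, edgeR adjusted p = 0.0189). Its close relative Dynll2 measured 125 and 146 against 138 and 164 FPKM, with a log2 fold change of -0.18 (edgeR adjusted p = 0.472). Dynlt1b, a Tctex-type light chain, fell from 2.67 and 3.85 to 2.05 and 1.27 FPKM, with a log2 fold change of -1.29 (SE 0.37, edgeR adjusted p = 0.0214). The paralogs Dynlt1c and Dynlt1f share sequence and strand, gave nearly the same counts in all libraries and stand for 1 signal. Dynlrb2, below the count filter, had 0 counts in both Cre- libraries and 8 and 6 in the Cre+ libraries, and was called when no filter was applied.

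Both dynein 2 genes were called higher. Dync2h1, the heavy chain of retrograde ciliary transport, measured 0.307 and 0.257 FPKM in Cre- EDL and 0.563 and 0.639 in Cre+ EDL (log2 fold change 0.76, SE 0.24, edgeR adjusted p = 0.0304). Dync2li1, its light intermediate chain, measured 3.74 and 3.42 against 6.48 and 7.05 FPKM (log2 fold change 0.59, SE 0.19, edgeR adjusted p = 0.0337). Neither gene's groups overlapped.

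Of 12 other kinesins tested, 2 rose and 1 fell. Kif7, a ciliary-tip kinesin of Hedgehog signalling, went from 0.478 and 0.448 to 1.19 and 2.06 FPKM, with a log2 fold change of 1.47 (SE 0.24, edgeR adjusted p = 0.000782). Kif9, a kinesin of motile cilia, went from 0.0505 and 0.0838 to 0.22 and 0.208 FPKM, with a log2 fold change of 1.33 (SE 0.44, edgeR adjusted p = 0.04). Kif26b, a kinesin relative without motor activity of its own that acts in developmental signalling, fell from 0.107 and 0.151 to 0.0594 and 0.0458 FPKM, with a log2 fold change of -1.62 (SE 0.41, edgeR adjusted p = 0.0115). All 3 were low and their groups did not overlap.

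Of the 17 calls, 7 remained with each of the 4 libraries left out in turn (Dync1h1, Dync1i1, Dync1li1, Dync1li2, Klc1, Kif3b and Kif7). Without Cre+ replicate 2, or without Cre- replicate 2, 8 motors were called, and Kif1b, Kifc3, Kif26b and Dynlt1b were then lost. Kif5c was lost without Cre- replicate 1, Kifc1 and Dynll1 remained only without Cre+ replicate 1, and Kif9, Dync2h1 and Dync2li1 were lost whichever library was left out. An exact permutation test of 2 against 2 libraries cannot go below p = 0.333, so the calls rest on the spread shared across genes and groups.

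Beside these changes, markers of cell types moved in EDL at 2.5 days. Of the 6 fast myofiber markers 4 were called lower, with a median log2 fold change of -0.92. Of the 5 endothelial markers 3 were called lower, with sums of 267 to 302 CPM in Cre- and 244 to 255 in Cre+ EDL. Satellite cell markers summed to 56.8 to 57.4 CPM in Cre- and 54.0 to 77.3 in Cre+ EDL. Macrophage markers summed to 72.9 to 107 and 90.7 to 119, and Schwann cell markers to 215 to 340.4 and 171 to 232. Fibroblast markers summed to 4219 to 4394 against 3348 to 6173 CPM. Their part in the motor results was not tested.

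**Figure D3:**
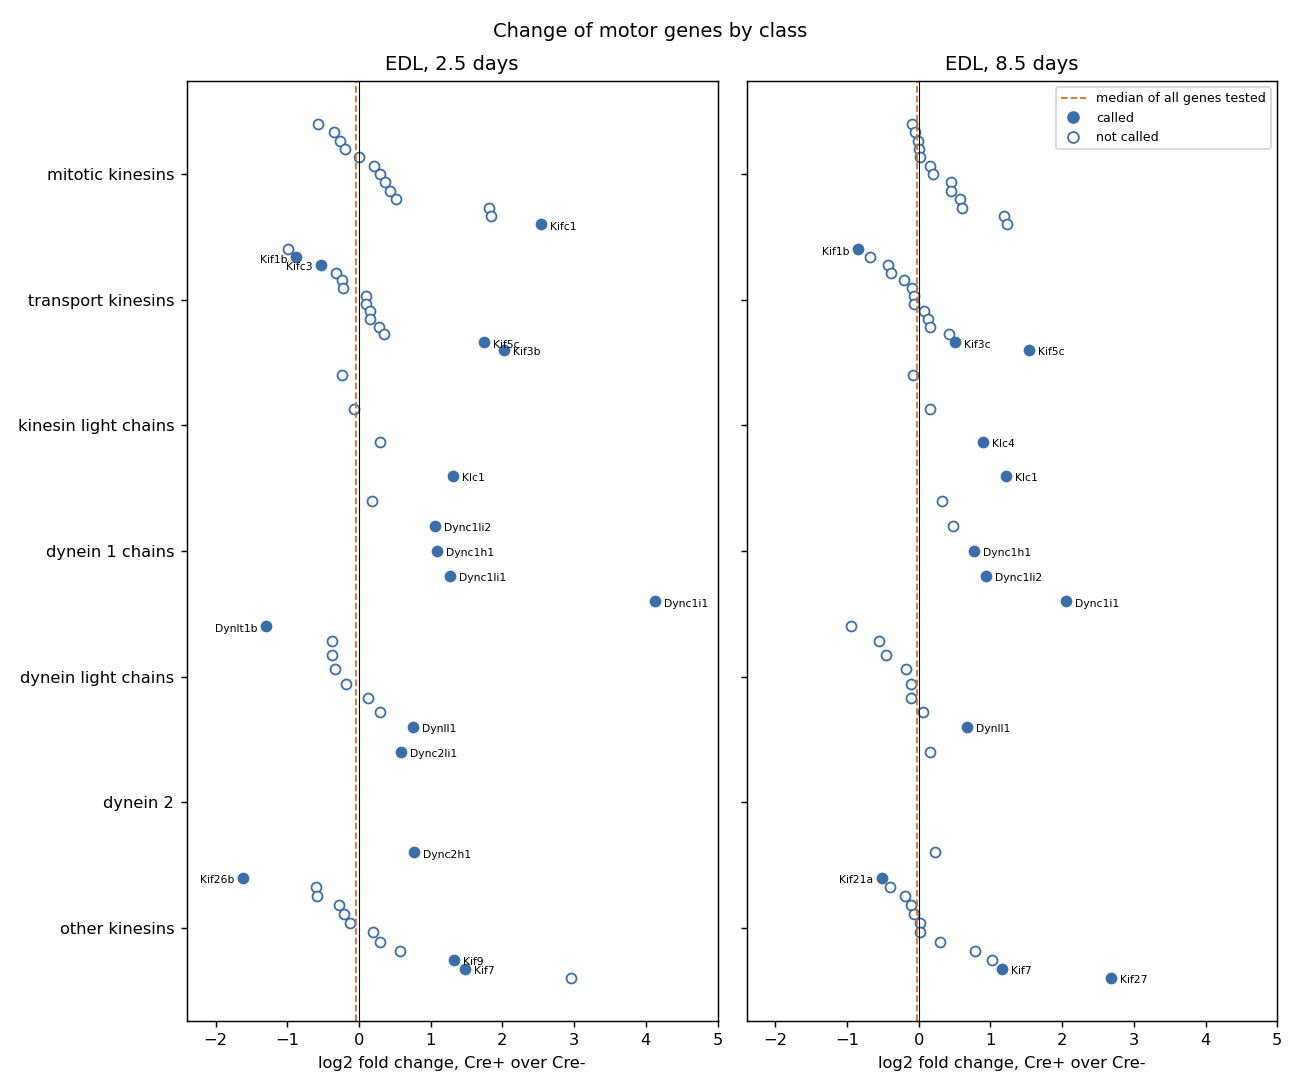
Log2 fold change, Cre+ over Cre-, of the 58 tested motors by class in EDL at 2.5 days (left) and 8.5 days (right), with filled points for calls and a dashed line at the median of all genes tested. Dynein 1 chains lie to the right with medians of 1.08 and 0.77, and the mitotic kinesins scatter around medians of 0.29 and 0.20 with Kifc1 as the call on the left.

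After 8.5 days of Dox in EDL, 12 of 58 motors were called, 10 higher and 2 lower, which is 20.7% against 14.1% of all genes tested (7.63% higher and 6.5% lower). The median of the tested motors was 0.10 and that of all genes -0.02. The Cre+ and Cre- values did not overlap in any of the 12. Together with a call this held for 7.63% of all genes tested in the higher and 6.32% in the lower direction. Among all genes called, it held for 1173 of 1173 higher and 972 of 999 lower. Dync1h1, Dync1i1, Dync1li2, Dynll1, Kif1b, Kif5c, Kif7 and Klc1 were called at both times, 8 genes that make up 47.1% of the calls at 2.5 days and 66.7% of those at 8.5 days.

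At this later time 3 of 5 dynein 1 chains were higher. Dync1li2 measured 29.3 and 27.7 FPKM in Cre- EDL and 65.7 and 57.6 in Cre+ EDL (log2 fold change 0.93, SE 0.14, edgeR adjusted p = 0.000834). Dync1h1 measured 12.2 and 18.9 against 36.5 and 24.2 FPKM (log2 fold change 0.77, SE 0.21, edgeR adjusted p = 0.0237). Dync1i1 measured 0.234 and 0.195 against 1.65 and 0.395 FPKM (log2 fold change 2.05, SE 0.54, edgeR adjusted p = 0.0212). Cre+ replicate 1 was far above Cre+ replicate 2, which lay just above the Cre- libraries. Dync1li1 did not pass, with 11.9 and 15.8 FPKM against 24.2 and 19.6 (log2 fold change 0.48, edgeR adjusted p = 0.123).

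Kinesin light chains were represented by 2 of 4 calls. Klc1 measured 28.6 and 33.0 FPKM in Cre- EDL and 87.3 and 76.2 in Cre+ EDL (log2 fold change 1.22, SE 0.15, edgeR adjusted p = 0.000297). Klc4, another cargo-binding light chain, measured 8.82 and 10.1 against 21.7 and 18.3 FPKM (log2 fold change 0.90, SE 0.12, edgeR adjusted p = 0.000484). In both genes the lower Cre+ library was well above the higher Cre- library.

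Of the transport kinesins, Kif5c was higher at 0.236 and 0.177 against 0.891 and 0.483 FPKM (log2 fold change 1.54, SE 0.39, edgeR adjusted p = 0.017). Kif3c, the alternative partner of Kif3a, measured 5.64 and 5.65 against 8.96 and 9.22 FPKM (log2 fold change 0.51, SE 0.15, edgeR adjusted p = 0.0353), close to the fold limit. Kif1b was lower at 65.3 and 40.4 against 32.6 and 33.9 FPKM (log2 fold change -0.84, SE 0.20, edgeR adjusted p = 0.0148). Kif3b, high at 2.5 days, measured 2.43 and 2.06 against 4.24 and 2.65 FPKM and was not called (log2 fold change 0.43, edgeR adjusted p = 0.446).

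In the remaining classes, Kif27, a relative of Kif7, rose from 5 and 4 counts (0.0312 and 0.0217 FPKM) to 57 and 31 counts (0.242 and 0.147 FPKM), with a log2 fold change of 2.68 (SE 0.57, edgeR adjusted p = 0.00762). Kif7 measured 0.437 and 0.434 against 1.23 and 0.978 FPKM (log2 fold change 1.16, SE 0.24, edgeR adjusted p = 0.00693), and Dynll1 12.4 and 14.2 against 27.3 and 20.9 FPKM (log2 fold change 0.67, SE 0.21, edgeR adjusted p = 0.049). Kif21a, which restrains microtubule growth at the cortex, was lower at 3.66 and 2.90 against 2.73 and 2.49 FPKM (log2 fold change -0.51, SE 0.13, edgeR adjusted p = 0.0177).

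No mitotic kinesin was called in EDL at 8.5 days by edgeR's quasi-likelihood test, with 0 of 13 past the threshold, 1 at an unadjusted p below 0.05 and 0 by DESeq2. That 1 was Kifc1, with 0.276 and 0.104 FPKM in Cre- and 0.67 and 0.338 in Cre+ EDL (log2 fold change 1.23, SE 0.55, edgeR adjusted p = 0.153). Log2 fold changes were above 0 in 10 of 13 and the class median was 0.20, beside 0.06 for the transport motors.

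The calls at 8.5 days rested on few libraries. Without Cre+ replicate 1, 3 motors were called, and without Cre- replicate 1, 5 were called. Dync1li2, Klc1 and Klc4 remained with each library left out. Kif27 and Kif7 were lost without Cre+ replicate 1, Dync1h1 and Kif1b without replicate 1 of either genotype, Dync1i1, Kif5c and Kif21a in 3 of 4 such fits, and Dynll1 and Kif3c in all 4. A fit of the 4 libraries alone called 6 motors. Fast myofiber markers summed to 78134 to 108095 CPM in Cre- and 71683 to 72061 in Cre+ EDL on that day. Of the 6 markers, 2 were called lower. Fibroblast markers summed to 3712 to 4568 against 5050 to 7395 CPM and macrophage markers to 146 to 153 against 168 to 229.7. Satellite cell markers summed to 58.2 to 63.4 against 71.4 to 77.2, and all 3 lists were without overlap. Of these, 0 of 5, 0 of 6 and 0 of 6 were called by edgeR and by DESeq2, with 0, 0 and 1 at an unadjusted p below 0.05 in edgeR. The part of any of these lists in the motor results was not tested.

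In SOL, 0 of 58 motors were called at 2.5 days by edgeR, where 0.384% of all genes were. At an unadjusted p below 0.05 there were 10, and DESeq2 called 1, Dynlt1b, at a log2 fold change of -1.31 (DESeq2 adjusted p = 0.0425, with a range of 0.0425 to 0.324 over 8 alternative fits). Dynlt1b measured 3.39 and 4.41 FPKM in Cre- and 2.38 and 1.15 in Cre+ SOL. Klc1 measured 32.7 and 32.5 FPKM against 52.7 and 44.1 (log2 fold change 0.42, edgeR adjusted p = 0.258), and Dync1li2 30.6 and 32.0 against 44.3 and 44.8 (log2 fold change 0.36, edgeR adjusted p = 0.277). In all 3 genes the libraries did not overlap, but the edgeR differences did not pass the test. Of the 58 tested motors, 28 were higher and 7 lower in Cre+ SOL without overlap, so this was common. FPKM is scaled to the total count, which put the median of all genes at 0.18 in this comparison. The share of all genes without overlap, called or not, was not counted.

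Dync1i1 stayed low in SOL, with 0.133 and 0.17 FPKM in Cre- and 0.135 and 0.152 in Cre+ mice at 2.5 days. At 8.5 days 0 of 58 motors were called in SOL by edgeR, where 0.631% of all genes were, with 5 at an unadjusted p below 0.05 and 0 by DESeq2. Klc1 then measured 35.1 and 34.7 against 53.7 and 42.9 FPKM (log2 fold change 0.43, edgeR adjusted p = 0.511). All 13 tested mitotic kinesins had a log2 fold change above 0 at that time, from 0.44 to 1.41, and none passed the test (0 of 13 by edgeR, 1 at an unadjusted p below 0.05 and 0 by DESeq2). The highest was Kif15, a spindle motor that works beside Kif11, with 9 and 8 counts in Cre- and 39 and 21 in Cre+ SOL (edgeR adjusted p = 0.596).

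Macrophage, lymphocyte and endothelial markers were also higher in Cre+ SOL at 8.5 days, without overlap of the sums. Macrophage markers summed to 116 to 149 CPM in Cre- and 157 to 179 in Cre+ SOL. Lymphocyte markers summed to 2.53 to 3.73 and 5.41 to 6.84, and endothelial markers to 358 to 452 and 479.7 to 527. By edgeR and by DESeq2 0 of 6, 0 of 3 and 0 of 5 of these markers were called, with 0, 1 and 0 at an unadjusted p below 0.05 in edgeR. Satellite cell markers went the other way without overlap, with 89.8 to 90.0 CPM in Cre- and 79.3 to 83.6 in Cre+ SOL. Sums of the fibroblast, Schwann cell, neutrophil and erythroid markers overlapped. The part of these lists in the shift of the mitotic kinesins was not tested.

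The difference of the Cre+ effect between EDL and SOL was itself tested. At 2.5 days 3 motors were called, all with the larger rise in EDL, where 4.25% of all genes were called and 3.36% in that direction. The difference in log2 fold change was 4.36 for Dync1i1 (SE 0.83, edgeR adjusted p = 0.0139), 1.07 for Dync1li1 (SE 0.28, edgeR adjusted p = 0.0496) and 0.89 for Klc1 (SE 0.22, edgeR adjusted p = 0.0394). With the replicate number shared by EDL and SOL as a replicate block, Klc1 had a difference of 0.88 (SE 0.23, edgeR adjusted p = 0.0528, with a range of 0.00238 to 0.0528 over 7 alternative fits) and was not called. Next were Dync1li2 at 0.70 (edgeR adjusted p = 0.058) and Kif3b at 1.73 (edgeR adjusted p = 0.063).

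These 3 calls also depended on single libraries. With 1 of the 8 libraries left out, 0 to 6 motors were called: 0 without Cre- EDL replicate 1 or 2, Cre+ SOL replicate 2 or Cre- SOL replicate 2, 1 without Cre+ EDL replicate 2, Cre+ SOL replicate 1 or Cre- SOL replicate 1, and 6 without Cre+ EDL replicate 1. At 8.5 days 0 motors were called by edgeR for this difference, where 0.592% of all genes were, with 9 at an unadjusted p below 0.05 and 2 by DESeq2 (Klc1 and Klc4). Klc4 had a difference of 0.80 (edgeR adjusted p = 0.0657), and 1 motor was called without Cre+ or Cre- EDL replicate 2. No motor passed the test of a difference between the EDL changes of 8.5 and 2.5 days, with 0 called by edgeR of 58 motors and 0% of all genes, 7 motors at an unadjusted p below 0.05 and 0 by DESeq2, and with 2 motors called without Cre+ replicate 1 of 2.5 days.

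**Figure D4:**
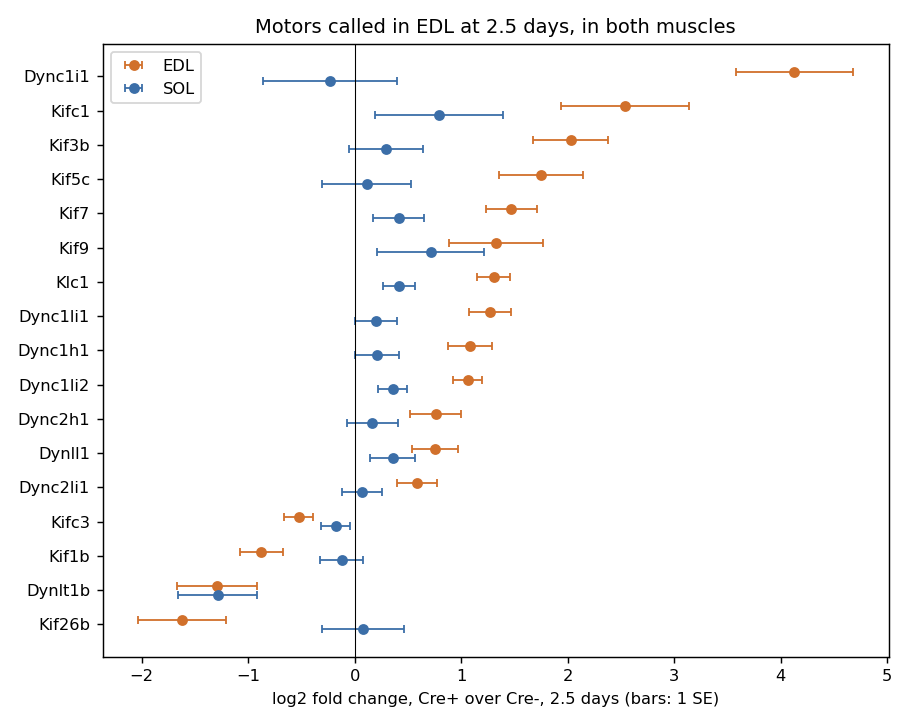
Log2 fold change, Cre+ over Cre- at 2.5 days, in EDL (orange) and SOL (blue) for the 17 motors called in EDL, with bars of 1 SE. Dync1i1, Dync1li1 and Klc1 passed the test of the difference between muscles, and Dynlt1b lies at -1.29 in both.

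At 5.5 days, in a fit of all 24 libraries, 0 of 58 motors were called by edgeR in EDL, where 0.304% of 15478 genes were, and 0 in SOL, where 0% were. At an unadjusted p below 0.05 there were 4 in EDL and 2 in SOL, and DESeq2 called 0 in both. The OSKM sum in Cre+ EDL was 35.2 CPM in 1 library and 252 in the other, against 33.1 to 33.8 in Cre- EDL. In Cre+ SOL it was 24.2 to 44.8 against 46.8 to 48.0 in Cre- SOL. Since not every Cre+ library was induced, these counts cannot tell whether motors respond to OSKM at 5.5 days. Klc1 measured 26.1 and 25.7 FPKM in Cre- and 31.4 and 42.2 in Cre+ EDL (log2 fold change 0.36, edgeR adjusted p = 0.502), and Dync1li2 21.4 and 22.6 against 25.3 and 35.7 (log2 fold change 0.33, edgeR adjusted p = 0.557). For both genes the higher value belonged to Cre+ replicate 2.

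Set side by side, the median change of the mitotic kinesins was above that of the transport motors in both muscles on both days. The difference of the medians, mitotic minus transport, was 0.17 at 2.5 days and 0.14 at 8.5 days in EDL, and 0.42 and 0.62 in SOL, as descriptions without a test. The EDL values turned with the settings. At 2.5 days the difference was -0.33 when members needed at least 10 counts in every library, and -0.26 to 0.37 with libraries left out in turn. At 8.5 days it was -0.22 without Cre+ replicate 1 and 0.70 without Cre+ replicate 2. In SOL at 2.5 days it was 0.027 without Cre+ replicate 1, and at 8.5 days 1.09 without Cre+ replicate 2.

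As a class sum in FPKM, dynein 1 chains summed to 74.1 and 74.6 FPKM in Cre- EDL and to 153 and 199 in Cre+ EDL at 2.5 days, and to 74.8 and 89.3 against 163 and 135 at 8.5 days. Kinesin light chains summed to 66.0 and 64.5 against 119 and 153 FPKM, and to 62.1 and 75.1 against 138 and 126. For both classes and both days, no Cre+ EDL library overlapped a Cre- EDL library. Mitotic kinesins summed to 1.16 and 1.36 against 1.96 and 2.50 FPKM at 2.5 days and to 2.07 and 2.47 against 4.44 and 2.30 at 8.5 days, where the groups overlapped.

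**Figure D5:**
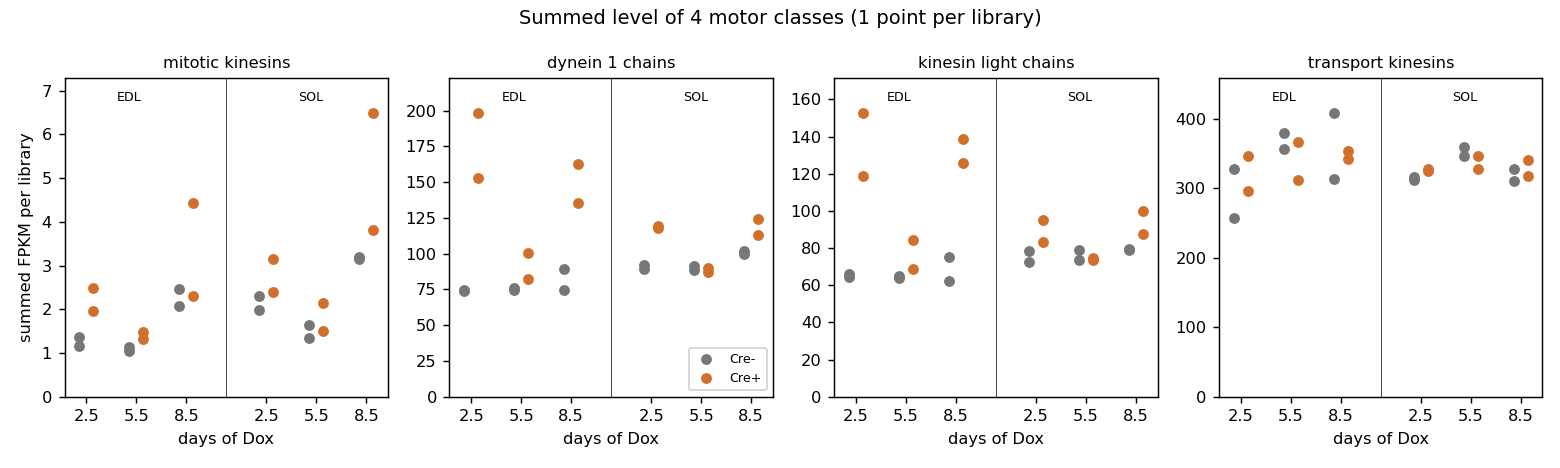
Summed FPKM of 4 motor classes, 1 point per library, by days of Dox in EDL and SOL (Cre- grey, Cre+ orange), on axes from 0. Dynein 1 chains and kinesin light chains are higher in Cre+ EDL at 2.5 and 8.5 days, and transport kinesins overlap at 2.5 days (257 to 327 FPKM against 296 to 346).

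The genes that work with these motors were taken from 3 lists. Of 12 dynactin genes, 1 was called lower in EDL at 2.5 days, where 10.2% of all genes were, the capping protein Capzb (log2 fold change -0.56, edgeR adjusted p = 0.00745), and the list median was 0.09. Scaled by library size alone, 6 were called higher and 0 lower, where 4207 and 610 of all 15372 genes were. At 8.5 days 2 were called higher, beside 7.63% of all genes, with a median of -0.01 that was 0.17 with library size alone.

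Of 28 motor adaptors and regulators, 5 were called higher and 4 lower in EDL at 2.5 days, beside 13.8% and 10.2% of all genes, with a median of -0.13. The largest rises were Spdl1, which recruits dynein to kinetochores (log2 fold change 2.36, edgeR adjusted p = 0.00424), and Bicd1, a cargo adaptor of dynein (log2 fold change 2.28, edgeR adjusted p = 0.00742). At 8.5 days 2 were called higher and 6 lower, beside 7.63% and 6.5% of all genes. With library size alone these became 10 and 3 at 2.5 days, beside 4207 and 610 of all 15372 genes, with the median at 0.20. At 8.5 days they became 4 and 3, beside 1956 and 542 of all genes.

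Of 25 spindle and cytokinesis genes, 3 were called higher and 1 lower in EDL at 2.5 days, beside 13.8% and 10.2% of all genes. Ndc80, an outer kinetochore protein, had a log2 fold change of 3.28 (edgeR adjusted p = 0.0129) and Cdca8, of the chromosomal passenger complex, 2.30 (edgeR adjusted p = 0.00417). The list median was 0.91, or 0.69 with Ccnb1, which had 0 counts in both Cre- libraries, set at its bound of 3 counts per library. The summed level was 16.4 to 21.1 CPM in Cre- and 30.9 to 31.3 in Cre+ EDL.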

How the data were processed

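Per the labels, poly(A) RNA of EDL and SOL muscle was sequenced as stranded single-end mRNA-seq. The authors aligned reads to mm10 with STAR (version 2.5.3a) and counted uniquely aligned reads over RefSeq exons with HOMER, and they deposited raw counts per gene in 1 table of 24 libraries. The authors' table gave no normalized values. FPKM was computed here from the count, the exon length and the total count of the library. Sums over OSKM, markers and spindle genes used CPM, which leaves out the exon length.

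Tests used edgeR 4.0.16 (TMM scaling, filterByExpr with a minimum count of 10, quasi-likelihood F test, Benjamini-Hochberg over all genes tested) in R 4.3.3. The 16 libraries of 2.5 and 8.5 days were fitted as 8 groups (15372 genes, common biological coefficient of variation 0.174), and the 5.5-day comparisons came from all 24 libraries (15478 genes). The full statistics are given for called members of the EDL comparisons whose groups did not overlap, members called in a difference or between muscles, and abundant members of each class, and from each partner list for the 2 called genes with the largest change in EDL at 2.5 days. Other fits used DESeq2 1.42.0, other scalings and filters, a replicate block, the 4 libraries alone, and each library left out. Same-numbered EDL and SOL libraries deviated together in all 6 pairs (r of 0.173 to 0.445 over genes), so a fit with that number as a block was set beside the unblocked main fit for comparisons between muscles. The scripts were tested on simulated counts. Members and lists were chosen with earlier results of these data known. Intervals and floors cover counting error only, and 394 rows of genes with several copies are uncertain.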

Additional observations from a re-analysis of the deposited data

Results flagged for a closer look

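The response to OSKM differed between EDL and SOL at 2.5 days for 3 motors by a test of the difference itself. The log2 fold change in EDL exceeded that in SOL by 4.36 for Dync1i1, by 1.07 for Dync1li1 and by 0.89 for Klc1, and in each of the 3 both Cre+ EDL libraries were above both Cre- EDL libraries. With the shared replicate number as a block, Klc1 missed the threshold (0.88, edgeR adjusted p = 0.0528, with a range of 0.00238 to 0.0528 over 7 alternative fits). With 1 library left out, Dync1i1 remained called in 3 of 8 fits and Dync1li1 and Klc1 in 1 of 8 each. With 2 libraries per group, single libraries could not be tested as outliers.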

How the results depend on the processing

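Named motors had 36 calls, and over their alternatives 352 values stayed on the same side of the threshold, 98 kept their direction and lost the threshold, and none turned. Motors called in EDL at 2.5 days numbered 17, 12 to 22 in the other fits (22 with library size alone, 13 with a replicate block, 12 with the 4 libraries alone) and 8 to 18 with a library left out. At 8.5 days the number was 12, with 6 under the replicate block, 6 with the 4 libraries alone and 3 to 10 with a library left out. Same-numbered Cre+ and Cre- libraries did not deviate together (r of -0.169 to 0.0578 in 6 pairs). The labels do not say what the shared number stands for, and these values cannot settle it. In SOL at 2.5 days DESeq2 called 1 and the other fits 0, and at 8.5 days all called 0, as did every fit of the 5.5-day comparisons. Between Cre- EDL and SOL 4 were called, 7 by the adjusted p alone, 6 with the replicate block and 4 to 7 with a library left out.

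For the difference between muscles at 2.5 days 3 were called, with 7 by DESeq2, 6 with all 24 libraries, 6 with library size alone, 2 with the replicate block and 0 to 6 with a library left out. At 8.5 days 0 were called, with 2 by DESeq2, 1 with all 24 libraries, 1 with library size alone and 0 to 1 with a library left out. For the difference between days in EDL 0 were called, and 0 to 2 with a library left out. The median of mitotic kinesins minus that of transport motors was 0.17 in EDL at 2.5 days (-0.26 to 0.37 with a library left out, -0.33 with at least 10 counts in every library), 0.14 in EDL at 8.5 days (-0.22 to 0.70), 0.42 in SOL at 2.5 days (0.027 to 0.52) and 0.62 in SOL at 8.5 days (0.30 to 1.09). The replicate block changed no other count by over 1.5 times. Fits with a library left out hold fewer samples, and the cause of these changes was not tested. The mitotic kinesins had low counts, and their median SE was 0.63 against 0.20 for the transport motors in EDL at 2.5 days.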

Other observations

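Mitotic kinesins were also compared across days in Cre- mice, which is a description and was not tested, since day and collection cannot be told apart. In Cre- EDL their summed level was 1.16 and 1.36 FPKM at 2.5 days, 1.13 and 1.05 at 5.5 days and 2.07 and 2.47 at 8.5 days. In Cre- SOL it was 1.99 and 2.31, then 1.64 and 1.35, and then 3.14 and 3.19 FPKM. In both muscles of Cre- mice the 8.5-day libraries were the highest and did not overlap the earlier days. In Cre+ SOL the sums were 3.15 and 2.38, 2.14 and 1.504, and 6.497 and 3.81 FPKM, with the same order of days. In Cre+ EDL they were 1.96 and 2.50, 1.48 and 1.33, and 4.44 and 2.30 FPKM, so that 8.5 days overlapped 2.5 days. Markers of some other cells were also higher in the Cre- libraries of 8.5 days, and others overlapped the earlier days. In Cre- EDL macrophage markers summed to 146 to 153 CPM against 69.4 to 107 on the earlier days. Lymphocyte markers there summed to 5.68 to 6.01 against 1.45 to 4.19. In Cre- SOL fibroblast markers summed to 3415 to 4411 CPM against 739 to 1853. Macrophage markers there summed to 116 to 149 against 71.0 to 100.2. Satellite cell markers were higher in EDL (58.2 to 63.4 CPM) and SOL (89.8 to 90.0) without overlap, as were neutrophil markers. Fibroblast markers of Cre- EDL overlapped, with 3712 to 4568 against 4219 to 4394 at 2.5 days. Lymphocyte markers of Cre- SOL overlapped, with 2.53 to 3.73 against 2.24 to 3.49 at 2.5 days. Endothelial, Schwann cell and erythroid markers overlapped in both muscles. The part of these lists in the level of the mitotic kinesins was not tested.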
